A study of Mus musculus with 59 samples.

Results

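Lithium was set directly against fluoxetine in the prefrontal cortex of mice labelled heterozygous (HT) for the Chd8-S62X allele, with sex as a block. The comparison used 19 of the 59 RNA-seq libraries of the study: 10 HT-labelled lithium libraries, 5 female and 5 male, and 9 HT-labelled fluoxetine libraries, 4 female and 5 male. All mice were C57BL/6J, and both groups carried the HT label. Pups received their drug through the dam's milk for 3 weeks, between postnatal days 3 and 24, and tissue was taken on day 25. The 10 HT-labelled vehicle libraries and the 20 WT-labelled lithium and fluoxetine libraries (10 each) were used alongside where stated. The sources used here give no dose, dam, litter or drug level, and do not say that each library came from its own animal, so each p-value rests on the spread among libraries, not among treated dams.

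Lithium is a mood stabiliser that inhibits inositol monophosphatases, which return inositol phosphates to free inositol, and glycogen synthase kinase 3 (GSK3), which marks beta-catenin for breakdown. Fluoxetine is an antidepressant that blocks the serotonin transporter, so that released serotonin stays longer outside the cell. Chd8, the gene of the allele, encodes an ATP-dependent chromatin remodeller tied to autism. A difference between the drug groups can come from either drug, so the values of vehicle libraries are given beside the leading genes.

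The 19 libraries summed to 31.0 to 33.4 M normalized counts, which are counts divided by the authors' factors. Taking the commonest low value of each library as 1 read puts their depth at 29.2 to 36.3 M reads. This is a rough estimate, since low values were not whole multiples of 1 step per library. Of 51456 genes, 16839 had a mean of at least 10 over all libraries and were tested with limma on log2(normalized count + 1), and a call is a Benjamini-Hochberg adjusted p under 0.05 over all of them. Xist lay at 22805 to 38198 in the 9 female libraries and 0 to 136 in the 10 male libraries. Chd8 lay at 5695, 6019.6 and 6545 normalized counts (lowest, median and highest) in lithium libraries, against 5513, 5907 and 6626 in fluoxetine libraries. It did not differ between the drugs beyond the spread (0.04 on the log2 scale, exact two-sided permutation p = 0.292 over 31752 permutations within sex). The 20 WT-labelled libraries of these drugs ran from 2828 to 4229, so Chd8 RNA was higher under the HT label, the opposite of what an allele that lowers its own RNA would give, and genotypes are given as labels for that reason.

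Neighbouring tissue varied between libraries inside both drug groups. Averaged on the log2 scale, 5 markers of the olfactory bulb (Cdhr1 and Tbx21 among them) ran from 4.58 to 10.41 in lithium libraries and from 4.88 to 10.26 in fluoxetine libraries. In 5 of the 19 libraries the average of 13 striatal neuron markers exceeded the series median by more than 5 robust SDs, namely replicate 5 of the lithium females, replicates 1 and 4 of the lithium males, and replicates 1 and 2 of the fluoxetine females. The first principal component carried 28.3% of the variance and ran with the olfactory bulb level, with libraries of both drugs at both ends, and the second (12.1%) separated the sexes. The cortical excitatory marker level was 10.91 to 11.27 in lithium libraries and 10.93 to 11.35 in fluoxetine libraries, a narrower range than those of the bulb and striatal markers.

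**Figure D1:**
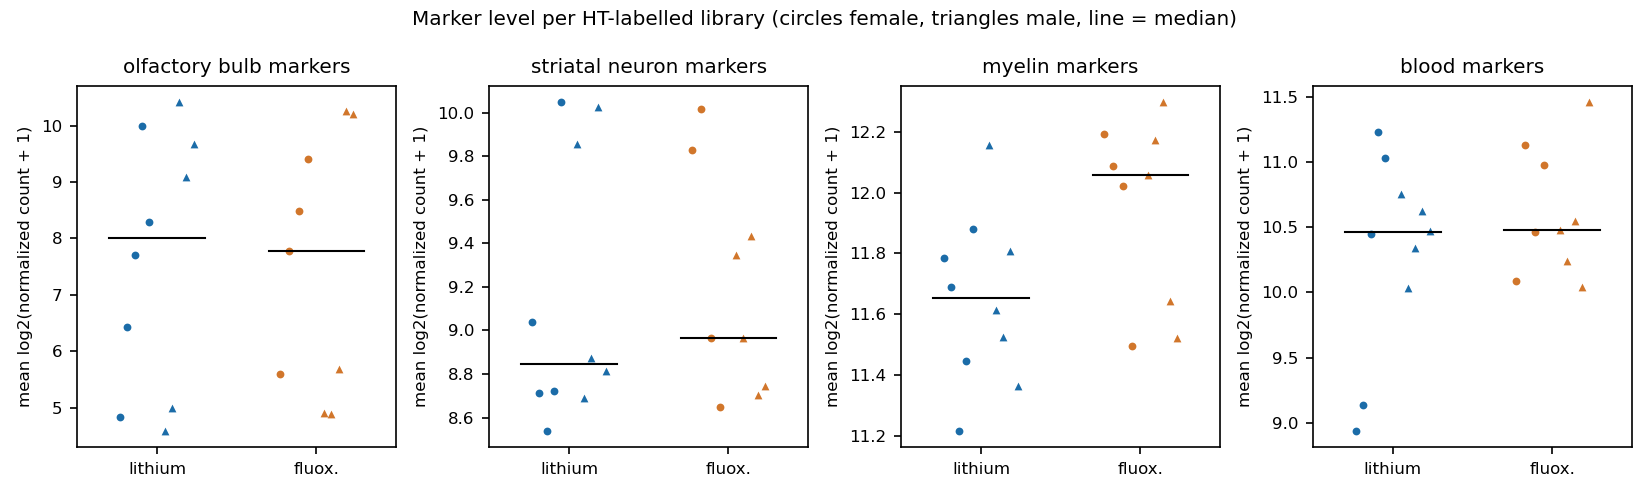
Mean log2(normalized count + 1) of 4 marker lists, with each point 1 HT-labelled library, circles for females, triangles for males and a line at the group median. Olfactory bulb and striatal levels spread widely within both drugs, whereas the myelin level had a median of 11.65 in lithium libraries and 12.06 in fluoxetine libraries.

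Between lithium and fluoxetine, 13 of the 16839 tested genes were called (0.0772%), 9 higher with lithium (0.0534%) and 4 lower (0.0238%). All 13 differences were small, between 0.12 and 0.50 on the log2 scale in size. At an unadjusted p under 0.05 there were 1698 genes (10.1%), 851 higher and 847 lower. The median difference over all tested genes was 0.001, and the median of the single genes' standard errors was 0.0746. Each of the 13 had the same sign in females and in males, as did 59.7% of all tested genes. Calls on the average of both sexes largely fix this, so it is a description only.

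Castor2 (chr5:134099711-134144343, plus strand, GRCm38) had the smallest p. Its product is a paralogue of the arginine sensor Castor1 and restrains the growth kinase complex mTORC1. Castor2 had 5414, 6137 and 6544 normalized counts (lowest, median, highest) with lithium, against 4939.8, 5147 and 5428 with fluoxetine and 4885, 5099.7 and 5809 with vehicle. The groups touched at 1 lithium library, and the other 9 lay above every fluoxetine library. The log2 difference was 0.23 ± 0.037 (SE, adjusted p = 0.000813).

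Slc5a3 (chr16:92058322-92087473, plus strand) encodes the sodium-coupled transporter that carries myo-inositol into cells. It had 945, 1086 and 1268 normalized counts with lithium, against 792, 906 and 1073 with fluoxetine and 833, 969 and 1033 with vehicle. The drug groups overlapped, with 7 of 10 lithium libraries above the highest fluoxetine library. Its difference was 0.25 ± 0.053 (adjusted p = 0.0322). The gene lies wholly within the same-strand gene Mrps6, which encodes a mitochondrial ribosomal protein, and the estimated counts of the 2 may not be fully separate. Mrps6 itself differed by 0.09 ± 0.044 (adjusted p = 0.481).

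Rbm28 (chr6:29123576-29165006, minus strand) encodes a nucleolar RNA-binding protein needed to make ribosomes. Its normalized counts were 1769, 2074 and 2378 with lithium, against 1438, 1650.0 and 1797 with fluoxetine and 1597, 1762.4 and 2002 with vehicle. All but 1 lithium library exceeded the fluoxetine range, a difference of 0.35 ± 0.063 (adjusted p = 0.00537). Ncl (chr1:86344719-86359400, minus strand), which encodes the abundant nucleolar protein nucleolin, went the other way. It had 7219, 7683 and 7924 normalized counts with lithium, against 7975, 8196 and 8876 with fluoxetine and 7928, 8227 and 8929 with vehicle. The drug groups did not overlap (−0.12 ± 0.026, adjusted p = 0.0322).

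Mcm8 (chr2:132816141-132844197, plus strand), a helicase gene of recombination repair, had the largest difference among the called genes. It had 89.6, 109.6 and 132 normalized counts with lithium, against 133, 149.7 and 207 with fluoxetine and 111, 152 and 169.8 with vehicle. Every lithium library lay below every fluoxetine library, although by 1 normalized count at the border (−0.50 ± 0.088, adjusted p = 0.00537). Purb (chr11:6467599-6475917, minus strand), whose product binds purine-rich single-stranded nucleic acid, separated in the same way. It had 17261, 18755 and 19351 normalized counts with lithium, against 19385, 20289.6 and 22404 with fluoxetine (−0.14 ± 0.028, adjusted p = 0.0172). Over all tested genes, 4 had every lithium library below every fluoxetine library (0.0238%) and 2 had every one above (0.0119%). The others of these 6, named here after their values were seen, were the lower Colgalt1 and the higher 4930590J08Rik and 2500002B13Rik, none of them called.

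Of the remaining called genes, 6 were higher with lithium. Cog6 (chr3:52981875-53017237, minus strand), for a subunit of the Golgi tethering complex COG, had 1581, 1661 and 1737 normalized counts, against 1369.9, 1480.0 and 1586 with fluoxetine (0.17 ± 0.031, adjusted p = 0.00537). Ccdc93 (chr1:121431049-121506460, plus strand), which acts in endosomal sorting, rose by 0.19 ± 0.042 (adjusted p = 0.0322). Fstl4 (chr11:52764634-53188538, plus strand), a follistatin-like gene, had 768, 907 and 1003 normalized counts, against 678, 727 and 804 (0.27 ± 0.059, adjusted p = 0.0447). In each of these genes 8 or 9 lithium libraries lay above the fluoxetine range. Cfap300 (chr9:8021672-8042823, minus strand) and Mkks (chr2:136873780-136891389, minus strand) both belong to cilium biology, the first through assembly of ciliary dynein and the second through the BBSome chaperonin. Cfap300 rose by 0.35 ± 0.074 and Mkks by 0.21 ± 0.044 (adjusted p = 0.0322 for both). Mkks shares its strand with the overlapping AL731706.1, so its counts are less certain. Gm5124 (chrX:21360865-21364622, plus strand), which the files give only as a predicted gene, rose by 0.26 ± 0.055 (adjusted p = 0.0322). Cdk19 (chr10:40339564-40483818, plus strand), a kinase of the Mediator complex that relays signals to RNA polymerase II, was the last of the 4 lower genes. It had 2225, 2373 and 2594 normalized counts, against 2503, 2670.4 and 2858 with fluoxetine (−0.15 ± 0.032, adjusted p = 0.0322).

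**Figure D2:**
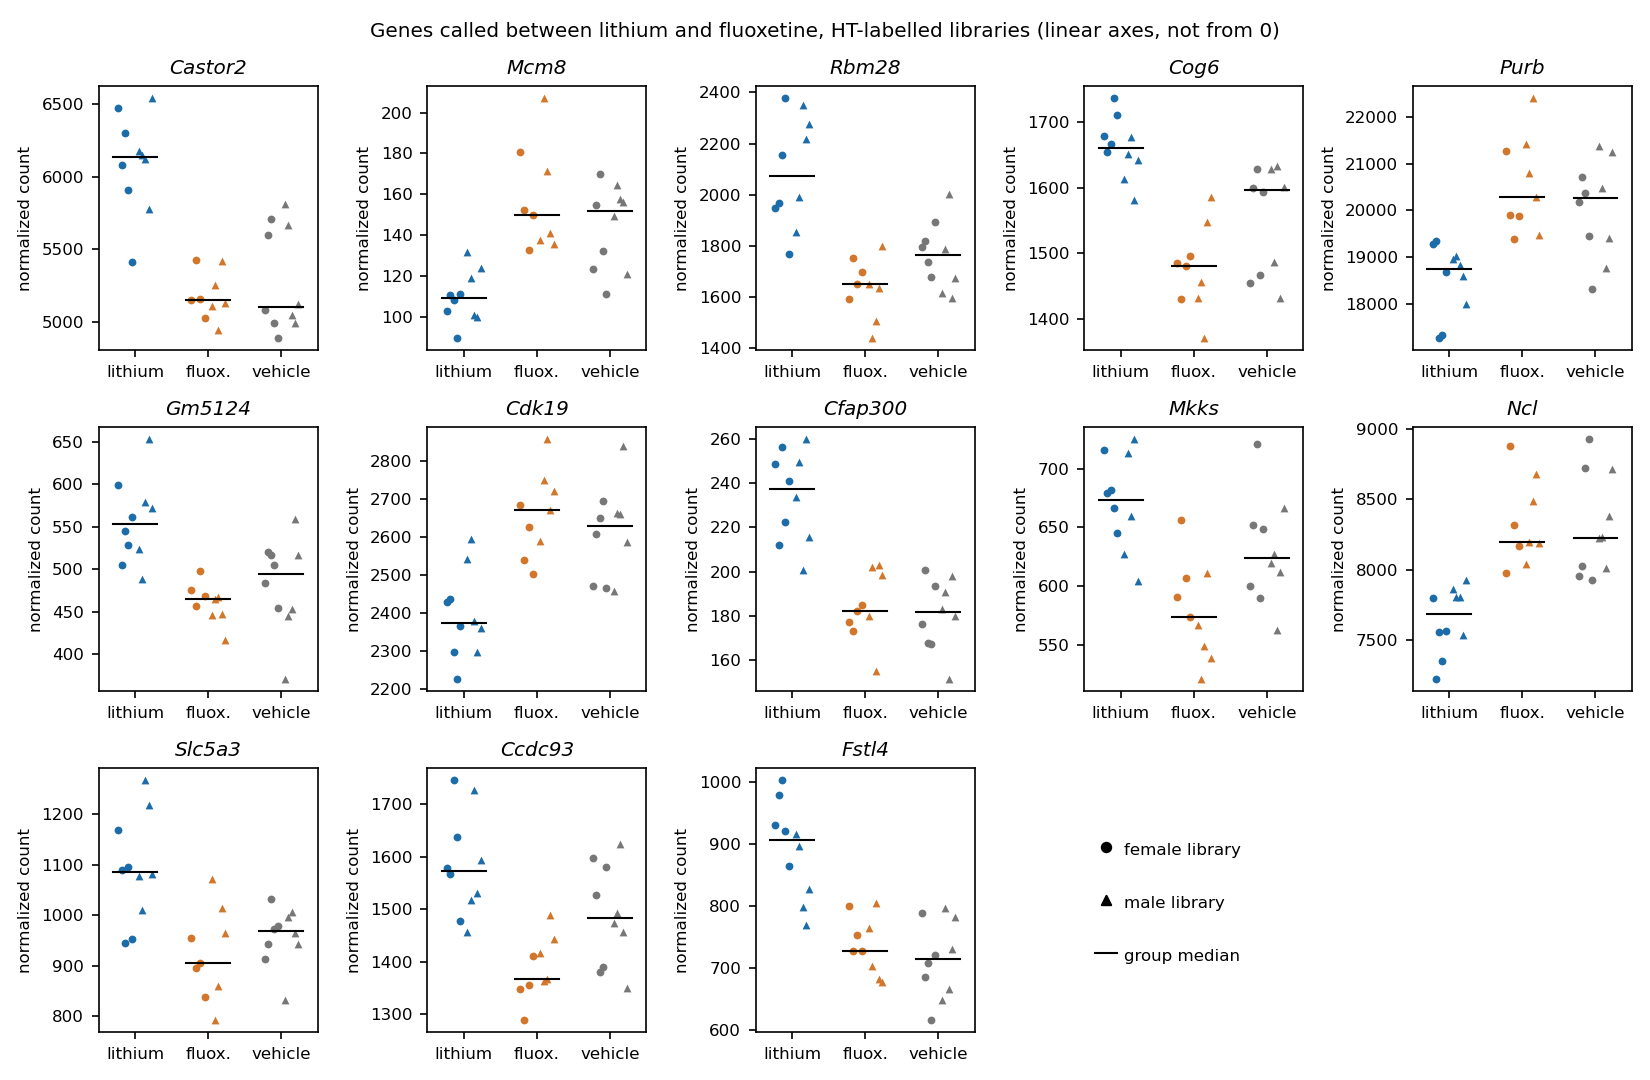
Normalized counts of the 13 called genes in every HT-labelled library (linear axes that do not start at 0), with lithium left, fluoxetine in the middle and vehicle right, circles for females, triangles for males and a line at the median. Lithium and fluoxetine libraries did not overlap for Mcm8, Purb and Ncl and overlapped by a few libraries for the other 10.

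Leaving out 1 library at a time showed which calls were kept with fewer libraries. Castor2, Mcm8, Rbm28 and Cog6 were called in all 19 such fits and Purb in 16. Cdk19 and Cfap300 were called in 9, Ncl, Gm5124 and Slc5a3 in 8, Ccdc93 in 6, Mkks in 5 and Fstl4 in 1. A lost call did not mean a large shift. Over the 19 fits the difference ran from 0.25 to 0.29 for Fstl4 and from 0.19 to 0.23 for Mkks. The count of calls fell to 4 without fluoxetine male replicate 3, to 5 without fluoxetine female replicate 1 or 3 or lithium male replicate 4, and to 6 without fluoxetine female replicate 2, lithium female replicate 3 or lithium male replicate 3. It was 7 without fluoxetine male replicate 2, 8 without fluoxetine female replicate 4, fluoxetine male replicate 1 or lithium female replicate 2 or 4, and 25 without lithium female replicate 5. With the striatal-rich libraries left out (these 5 and the 3 others of the series), 5 genes were called, among them Castor2 and Rbm28 but none of the other 11. With the olfactory bulb and striatal levels as covariates 112 genes were called, including all 13. All 13 kept their sign in all these fits.

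The next genes by p missed the threshold. Plekhg4 had 107, 155 and 250.04 normalized counts with lithium, against 46.4, 94.9 and 164 with fluoxetine. That difference, 0.73 ± 0.168, was larger than any called one but varied more (adjusted p = 0.0643). Below 0 stood Slc41a3 of a magnesium transporter family (−0.33 ± 0.074), the skeletal muscle actin Acta1 (−0.31 ± 0.073), Uri1 of a prefoldin-like complex (−0.17 ± 0.040), Fahd2a (−0.24 ± 0.054), Tmem91 (−0.34 ± 0.080) and Armcx5 (−0.27 ± 0.065), with adjusted p between 0.0599 and 0.0643. Armcx5 lies within the same-strand gene Gprasp1.

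Each drug was also set against vehicle. These 2 comparisons share the 10 vehicle libraries, so their values are only placed side by side. Castor2 differed from vehicle by 0.21 with lithium (adjusted p = 0.0035) and by −0.03 with fluoxetine (adjusted p = 0.943). Fstl4 differed by 0.32 with lithium (adjusted p = 0.00482) and by 0.05 with fluoxetine, Cfap300 by 0.37 (adjusted p = 0.0138) and 0.02, Ncl by −0.12 (adjusted p = 0.0193) and 0.00, and Mcm8 by −0.38 (adjusted p = 0.0336) and 0.11. Slc5a3 differed by 0.18 with lithium (adjusted p = 0.124) and −0.06 with fluoxetine. For Cog6, Mkks and Ccdc93 neither drug differed from vehicle by a called amount, with values of 0.10 and −0.07, 0.09 and −0.11, and 0.09 and −0.10 for lithium and fluoxetine. Over all tested genes, lithium against vehicle gave 40 calls (0.238%). Fluoxetine against vehicle gave 0 calls with limma and 857 genes at an unadjusted p under 0.05 (5.09%).

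WT-labelled libraries offered the same contrast in other libraries. There, 990 genes were called (5.88%), 490 higher with lithium (2.91%) and 500 lower (2.97%). All 13 genes called in HT-labelled libraries had the same sign. Of them, 8 were called in both, which is 61.5% of the HT calls and 0.808% of the WT calls. The 8 were Castor2, Slc5a3, Rbm28, Gm5124, Cdk19, Cfap300, Mkks and Ccdc93. Castor2 differed by 0.25 in WT-labelled libraries and Slc5a3 by 0.34. Among the 990 WT calls, 90% had the same sign in HT-labelled libraries, against 64.2% of all tested genes, and 34.4% also had an unadjusted p under 0.05 there in that direction, against 8.61% of all. With no dam or litter given, pups of both labels may share treated dams. Both contrasts also took their spread from the same model. Agreement between the labels is therefore not shown to be independent.

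The difference between the genotype labels was tested itself. No gene was called with limma, and 958 had an unadjusted p under 0.05 (5.69%), so the larger WT count is not shown to be a difference between the labels. The smallest p belonged to Npat, a histone gene activator (−0.29 ± 0.067), Tnrc6b, which acts in microRNA silencing (−0.44 ± 0.101), and Fgfrl1, an FGF receptor-like gene (0.38 ± 0.087), all with an adjusted p of 0.358. Mcm8 differed by only −0.05 in WT-labelled libraries (adjusted p = 0.813), and its difference between labels was −0.45 ± 0.123 (adjusted p = 0.515). Ncl likewise stood at −0.03 in WT-labelled libraries (adjusted p = 0.541).

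**Figure D3:**
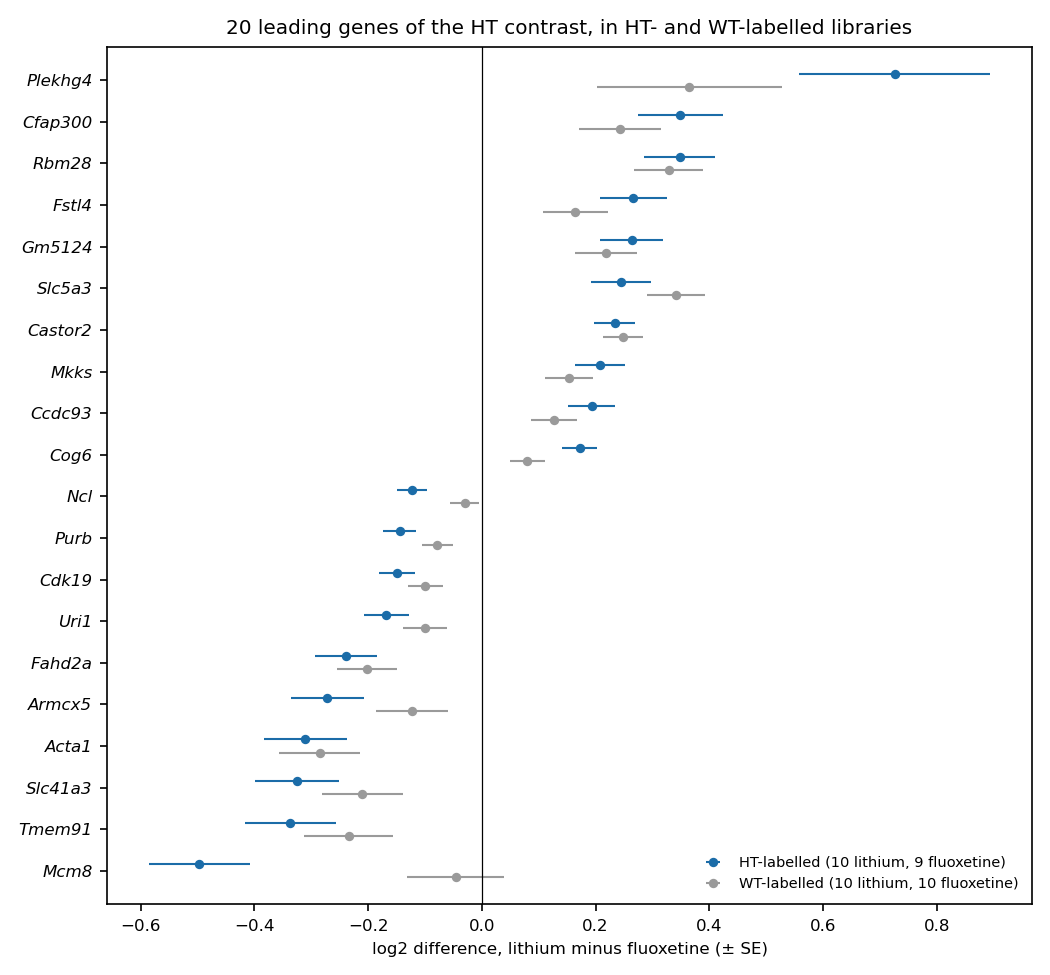
Log2 difference of lithium minus fluoxetine (x axis, point ± SE) for the 10 genes of smallest p in each direction, in HT-labelled libraries (blue, upper) and WT-labelled libraries (grey, lower). All 20 had the same sign under both labels, and Mcm8 shows the widest gap, −0.50 in HT-labelled and −0.05 in WT-labelled libraries.

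The inositol cycle holds the enzymes that lithium inhibits. Slc5a3 was the 1 call among 21 tested members of 22 listed. Impa1, the main inositol monophosphatase and a direct lithium target, had 2224, 2331 and 2558 normalized counts with lithium, against 2034, 2199 and 2360.2 with fluoxetine. All 10 lithium libraries lay above the fluoxetine median, a difference of 0.11 ± 0.037 that was not called (adjusted p = 0.249). Against vehicle, Impa1 differed by 0.18 with lithium (adjusted p = 0.0162) and by 0.07 with fluoxetine. Its paralogue Impa2 was level, at 126, 144 and 259 with lithium and 122, 144 and 299.7 with fluoxetine. Isyna1, which makes inositol anew from glucose 6-phosphate, stood at 0.13 ± 0.072, and Bpnt1, another lithium-sensitive phosphatase, at 0.05 ± 0.033. Cds1, which makes the CDP-diacylglycerol that inositol joins, stood at −0.11 ± 0.047 (adjusted p = 0.371). The list's median was −0.005, with 10 of 21 above 0, beside 50.3% of all tested genes. Of the 7 tested osmotic response genes, which include Slc5a3 as an importer of the osmolyte inositol, 6 were above 0 with a median of 0.09, and Slc5a3 alone was called. The median of these 7 against vehicle was 0.007 with lithium (4 above 0) and −0.08 with fluoxetine (1 above 0), with the vehicle libraries shared.

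GSK3 and its beta-catenin pathway held no call among 23 tested members of 24. The kinases themselves were close to level: Gsk3a had 5069.6, 5906 and 6305 normalized counts with lithium, against 5106, 6220.0 and 6603 with fluoxetine (−0.06 ± 0.050), and Gsk3b differed by 0.03 ± 0.040. Ctnnb1, which encodes beta-catenin, had 17633, 18544 and 19217 with lithium, against 18468, 20258 and 21542 with fluoxetine. All 10 lithium libraries were below the fluoxetine median, yet the groups overlapped and the difference of −0.12 ± 0.033 was not called (adjusted p = 0.122). In WT-labelled libraries Ctnnb1 fell by 0.21 (adjusted p = 0.000113), and against HT-labelled vehicle it differed by −0.19 with lithium (adjusted p = 0.0035) and −0.07 with fluoxetine. The beta-catenin target Ccnd1, for cyclin D1, had 1504, 1628 and 1904 with lithium, against 1226, 1466 and 1657 with fluoxetine (0.16 ± 0.064, adjusted p = 0.338). Axin2, another target of the pathway, stood at 0.08 ± 0.057 and Lef1, a partner of beta-catenin on DNA, at −0.15 ± 0.092. The list had a median of 0.01, with 14 of 23 above 0.

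The serotonin list held no call among 17 tested members of 18, with a median of −0.04 and 7 above 0. Slc6a4, the transporter that fluoxetine blocks, was too low to test, at 0 to 11.9 normalized counts with lithium and 0 to 19.7 with fluoxetine. Its RNA is made mainly in cell bodies of the raphe nuclei. Among receptors, Htr7 had 159, 203 and 248 with lithium, against 189, 224 and 262 with fluoxetine (−0.20 ± 0.073, adjusted p = 0.296). Htr1a stood at −0.12 ± 0.107 and Htr2a at −0.10 ± 0.076. Ddc, the decarboxylase of serotonin and dopamine synthesis, had 130, 134 and 155 with lithium, against 145, 159 and 190 with fluoxetine, with 7 lithium libraries below the fluoxetine range (−0.24 ± 0.094, adjusted p = 0.336).

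**Figure D4:**
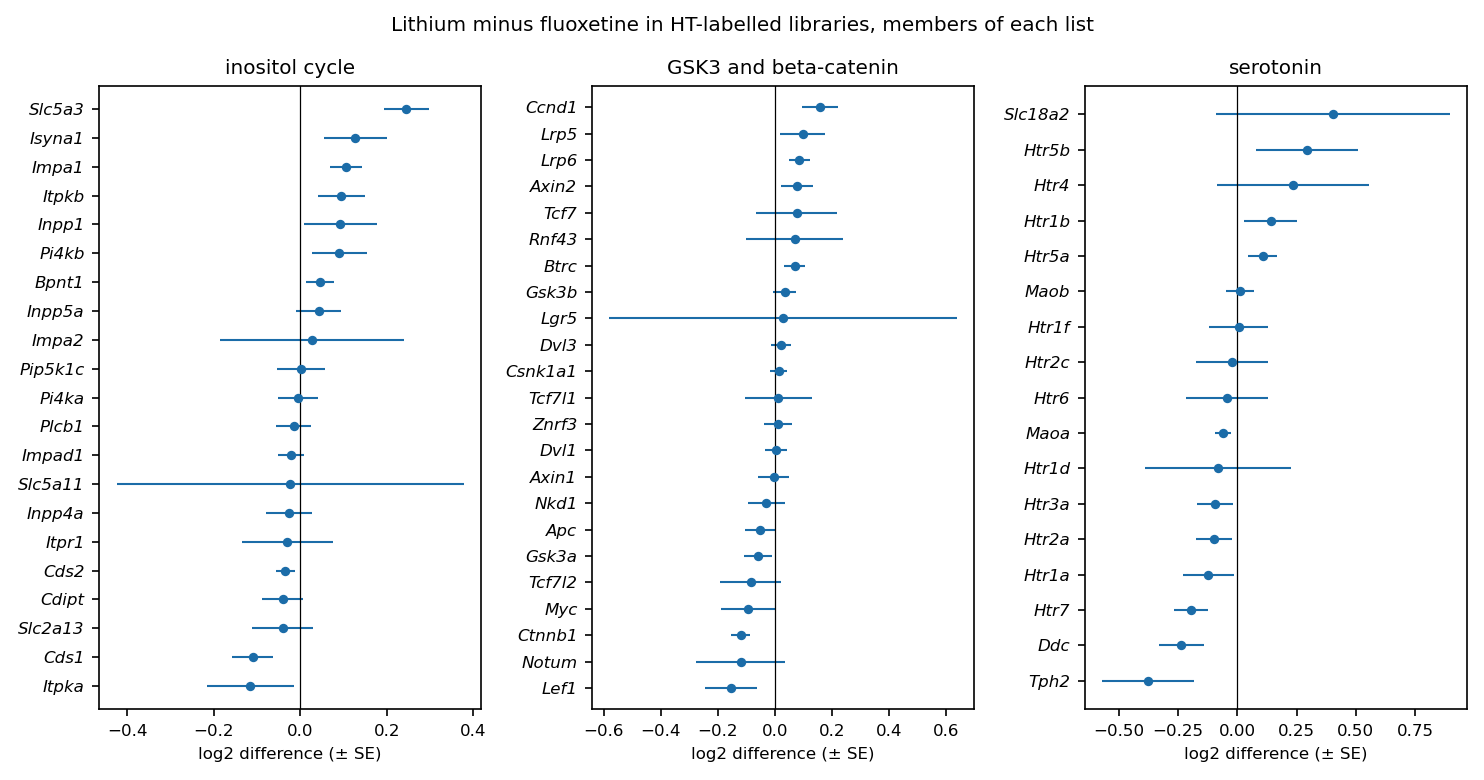
Log2 difference of lithium minus fluoxetine in HT-labelled libraries (x axis, point ± SE) for each tested member of the inositol cycle, GSK3 and beta-catenin, and serotonin lists. Slc5a3, at 0.25, is the 1 called member. Most intervals of the others are narrow and lie near 0, whereas Lgr5, Slc18a2 and Slc5a11 have wide ones.

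Chaperones and folding enzymes of the endoplasmic reticulum (ER) lay almost all on the lithium side. These genes serve proteins that enter the secretory pathway and share control by the unfolded protein response, often through an ER stress response element in the promoter. Of 20 tested members, 19 were above 0 and 15 had an unadjusted p under 0.05, all higher with lithium, beside 5.05% of all tested genes. None was called. With library weights 6 were called, where 288 genes were called in all. With the olfactory bulb and striatal levels or the first principal component as covariates 2 were called, where 112 and 203 genes were called in all. As a covariate, this component was computed over all 59 libraries, not over the 19 as above. Hspa5, the main ER chaperone BiP, had 10586, 11319 and 12678 normalized counts with lithium, against 7765, 9286 and 11866 with fluoxetine. All 10 lithium libraries exceeded the fluoxetine median, and 2 exceeded the fluoxetine range (0.29 ± 0.076, adjusted p = 0.11). Sdf2l1, of the same chaperone complex, had 423, 472 and 581 with lithium, against 320.1, 372 and 431 with fluoxetine (0.35 ± 0.102, adjusted p = 0.144). The disulfide isomerase Pdia6 stood at 0.18 ± 0.050 and calreticulin, encoded by Calr, at 0.14 ± 0.042.

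The list's median was 0.12, 0.14 in females and 0.11 in males. Against vehicle it was 0.11 for lithium and −0.01 for fluoxetine, with the vehicle libraries shared. In WT-labelled libraries it was 0.12. Called there were 7 of the 20 genes, all higher with lithium, beside 2.91% of all tested genes: Canx, Hyou1, Calr, Hsp90b1, Pdia4, Syvn1 and Dnajc3. The transcription factor Xbp1, which drives many of these genes, stood at 0.03 ± 0.042, and Derl3, a low gene of ER-associated degradation, at −0.13 ± 0.177. Atf4, the transcription factor of the amino acid and ER stress response, had 3182, 3332 and 3729 with lithium, against 2839, 3059 and 3196 with fluoxetine (0.16 ± 0.040, adjusted p = 0.0945). The 28 tested ATF4 and amino acid genes had a median of 0.02, with 18 above 0. At an unadjusted p under 0.05 there were 3 (10.7%), beside 10.1% of all tested genes.

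The promoters of these members were searched for the ER stress response element, CCAAT and CCACG with 9 bases of any kind between them. Both strands were searched, from 250 bases before to 50 bases after the RefSeq start. The element was in 9 of the 18 members with a promoter in RefSeq (50%) and in 0.137% of all 27025 genes with one. The stretches below, from RefSeq GRCm38.p6 and given on the gene's strand, are those of 5 of the genes named above, Derl3 with its value below 0 among them, with the fixed bases of the element in capitals. The windows are chr2:34772010-34772058 for Hspa5 (plus strand), chr12:17266476-17266524 for Pdia6 (plus), chr8:84847060-84847108 for Calr (minus), chr14:118937812-118937860 for Dnajc3 (plus) and chr10:75893227-75893275 for Derl3 (plus).
Hspa5: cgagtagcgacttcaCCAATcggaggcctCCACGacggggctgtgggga
Pdia6: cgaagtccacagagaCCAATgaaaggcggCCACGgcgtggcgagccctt
Dnajc3: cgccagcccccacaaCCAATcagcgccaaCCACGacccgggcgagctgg
Calr: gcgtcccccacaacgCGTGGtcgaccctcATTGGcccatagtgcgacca
Derl3: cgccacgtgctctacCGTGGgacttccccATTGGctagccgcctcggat
In Calr and Derl3 the element reads on the opposite strand. A match describes the sequence only, and these shares would be the same without any drug difference.

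Interferon response genes lay mostly on the fluoxetine side. These genes are switched on by type I interferon through an element of repeated GAAA, and several encode enzymes that sense or break down viral RNA. Of 24 tested members, 21 were below 0, with a median of −0.18, and 7 had an unadjusted p under 0.05, all lower with lithium, beside 5.03% of all tested genes. None was called. Oasl2, of the 2'-5' oligoadenylate synthetase family, had 53.0, 87.1 and 119 normalized counts with lithium, against 77.5, 132 and 197 with fluoxetine. All 10 lithium libraries were below the fluoxetine median (−0.66 ± 0.16, adjusted p = 0.0652). The difference was −1.07 in females and −0.26 in males, and the difference between the sexes, −0.81 ± 0.319, was not called. Rsad2, for the antiviral enzyme viperin, had 23.3, 28.3 and 41.5, against 28.6, 40.5 and 54.3 (−0.45 ± 0.151), and Ifit1, which binds foreign RNA caps, 35.3, 61.6 and 83.7, against 56.3, 84.8 and 106 (−0.40 ± 0.167). These are low counts. The median was −0.11 over the 19 members with a mean of at least 50, and −0.12 without lithium male replicate 1. The full list had a median of −0.18 for lithium against vehicle and of −0.04 for fluoxetine against vehicle, and of −0.15 in WT-labelled libraries, where no member was called. Microglial markers, from a cell type that carries much of this response, had a median of 0.02.

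The interferon-stimulated element, searched as GAAA, 2 bases of any kind and GAAA again, on both strands of the same windows, was in 12 of 20 members with a promoter (60%) and in 3.99% of all genes with one. The stretches of 4 low members are shown because they carry it in single or repeated form, again with the fixed bases in capitals, at chr19:34640770-34640828 for Ifit1 (plus strand), chr12:26456548-26456587 for Rsad2 (minus), chr5:120907526-120907560 for Oas1a (minus) and chr4:156200860-156200911 for Isg15 (minus).
Ifit1: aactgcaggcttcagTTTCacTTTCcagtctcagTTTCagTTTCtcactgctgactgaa
Rsad2: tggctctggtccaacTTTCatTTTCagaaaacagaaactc
Oas1a: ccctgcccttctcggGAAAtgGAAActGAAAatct
Isg15: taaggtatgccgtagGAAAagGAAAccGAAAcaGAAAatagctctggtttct
Oas1a, for a synthetase of the same family as Oasl2, stood at −0.55 ± 0.198 and Isg15, for a ubiquitin-like protein, at −0.19 ± 0.156, neither of them called. A sterol element, TCACCCCAC, was in 1 of 17 cholesterol genes (5.88%) and 0.614% of all genes, and the ATF4 element TGATGNAAN in 10 of 25 ATF4 and amino acid genes (40%) and 4.50% of all. The shares of the interferon, sterol and ATF4 elements likewise describe sequence only, and would be the same without any drug difference.

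Cholesterol synthesis and uptake genes were above 0 in 22 of 24 members, with a median of 0.09. At an unadjusted p under 0.05 there were 6 higher and 1 lower (29.2%), beside 10.1% of all tested genes, and none was called. That count of 7 became 4 without lithium female replicate 1, 11 without lithium female replicate 4 or fluoxetine male replicate 3, and 12 without lithium male replicate 3. It was 16 with the olfactory bulb and striatal levels or the first principal component as covariates, with 1 and 2 calls. Those fits called 112 and 203 genes in all, with 2215 and 2430 at an unadjusted p under 0.05. With library weights the median was 0.06 with 20 above 0. Acat2, which starts the pathway by joining acetyl units, had 1289, 1369 and 1591 normalized counts with lithium, against 1152, 1245 and 1394 with fluoxetine (0.15 ± 0.043, adjusted p = 0.139). Mevalonate kinase, encoded by Mvk, stood at −0.13 ± 0.059, with all 10 lithium libraries below the fluoxetine median. The list's median was −0.02 for lithium against vehicle and −0.09 for fluoxetine against vehicle. In WT-labelled libraries the median was 0.13, and 6 of 24 were called, all higher with lithium, beside 2.91% of all tested genes.

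Immediate early genes, which neurons switch on within minutes of activity, were above 0 in 17 of 20 members, with a median of 0.15 and 4 at an unadjusted p under 0.05, all higher, beside 5.05% of all tested genes. None was called. Homer1, a postsynaptic scaffold gene with an activity-induced short form, had 7736, 9342 and 10989 normalized counts with lithium, against 6795, 7896 and 8515 with fluoxetine (0.27 ± 0.088, adjusted p = 0.229). Btg2 had 331, 387 and 693, against 262, 322 and 352 (0.42 ± 0.152), and Npas4, an activity-dependent transcription factor, 416, 587 and 887, against 401, 432 and 601 (0.44 ± 0.185). The best known members varied most: Fos stood at 0.19 ± 0.293 and Arc at 0.17 ± 0.542, with Arc between 756 and 9484 in lithium libraries and 787 and 4940.3 in fluoxetine libraries. The list's median was 0.27 in females and −0.07 in males, and no member was called in the test of the difference between the sexes. Single libraries weighed on the main list. It had 12 members above 0 and a median of 0.05 without lithium female replicate 2, 12 and 0.06 without lithium male replicate 1, 13 and 0.06 without lithium female replicate 1, 13 and 0.12 without fluoxetine female replicate 4, and 14 and 0.09 without fluoxetine female replicate 3. With library weights 12 were above 0, with a median of 0.09.

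**Figure D5:**
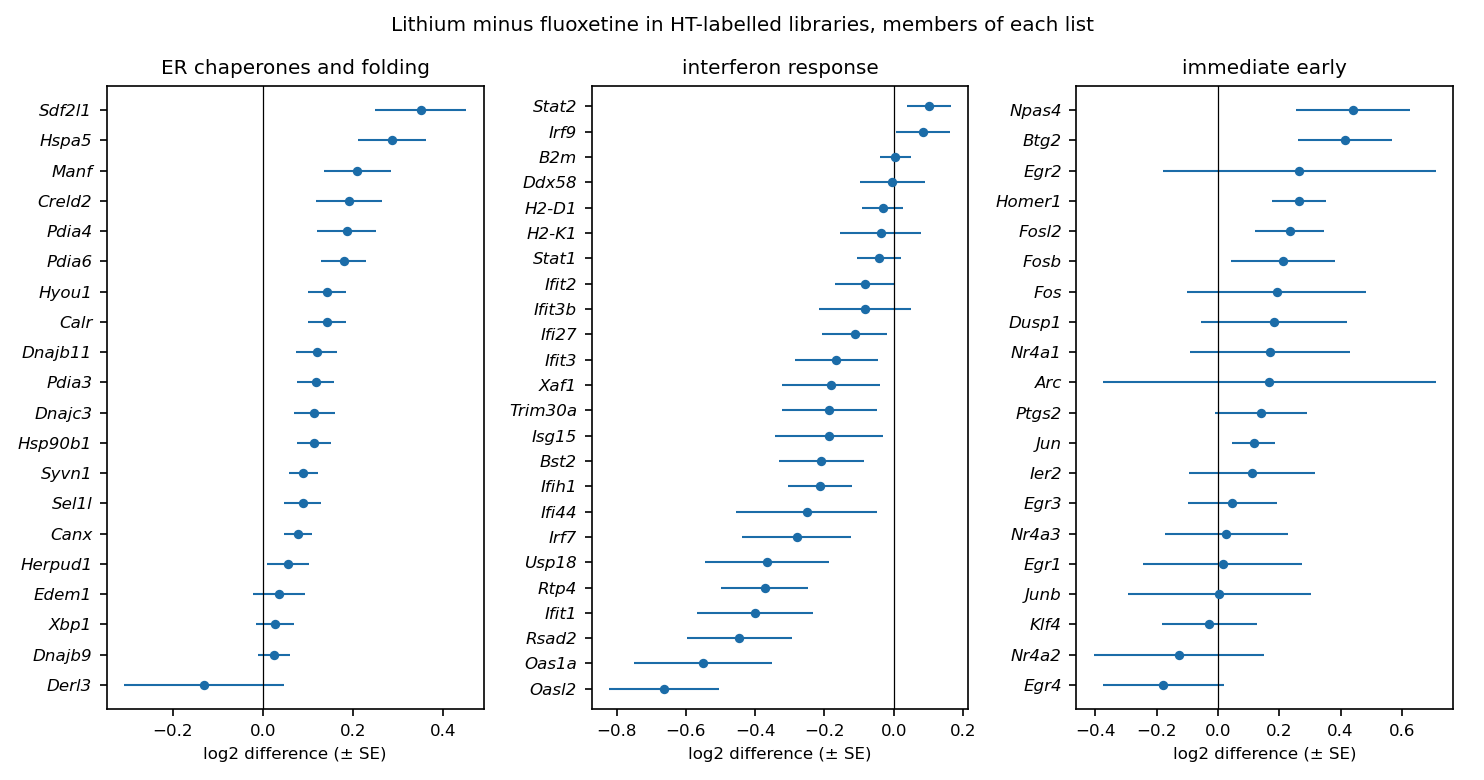
Log2 difference of lithium minus fluoxetine in HT-labelled libraries (x axis, point ± SE, with a separate scale per panel) for each tested member of 3 lists. ER chaperones (19 of 20) and immediate early genes (17 of 20, but 12 of 20 without lithium female replicate 2 or lithium male replicate 1) lay mostly above 0, interferon genes mostly below (21 of 24), and no member of these 3 lists was called.

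Myelin genes of oligodendrocytes were all on the fluoxetine side. All 15 had a difference below 0, with a median of −0.30, and 7 had an unadjusted p under 0.05, beside 5.03% of all tested genes in that direction. None was called. With any 1 library left out all 15 were still below 0 and the median lay between −0.25 and −0.37. The count of 7, however, changed with the library left out. It was 0 without lithium female replicate 3 or lithium male replicate 5, and 1 without fluoxetine female replicate 1 or 2 or fluoxetine male replicate 2 or 3. It was 2 without lithium female replicate 4, lithium male replicate 3, fluoxetine female replicate 3 or fluoxetine male replicate 1, and 3 without lithium male replicate 2. It was 11 without lithium male replicate 1 and 12 without fluoxetine female replicate 4. Mbp, for myelin basic protein, had 46665, 58029 and 83413 normalized counts with lithium, against 54556, 80218 and 90909 with fluoxetine (−0.34 ± 0.151, adjusted p = 0.415). Sox10, the transcription factor of the lineage, had 644, 787 and 1065, against 861, 969 and 1032 (−0.22 ± 0.096). Of the 10 lithium libraries, 9 had a myelin level below the fluoxetine median, and the fluoxetine libraries of low level were female replicate 4 and male replicates 4 and 5. The median was −0.003 for lithium against vehicle and 0.32 for fluoxetine against vehicle. In WT-labelled libraries it had the other sign, 0.15. In bulk tissue, fewer cells of a type and less RNA per cell cannot be told apart.

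Although no myelin gene was called, the other lists were also fitted with the myelin level as a covariate, a fit chosen after seeing the data. The ER list then had a median of 0.10, the interferon list −0.14, the cholesterol list 0.13 and the immediate early list 0.29. In that fit 23 genes were called in all, 2 of them cholesterol genes and 1 an interferon gene. Of the 13 called genes, 7 kept their call. Without the striatal-rich libraries the medians were 0.13 for ER genes, −0.19 for interferon genes, 0.07 for cholesterol genes, 0.24 for immediate early genes and −0.34 for myelin genes. Among markers of other cells, astrocyte genes had a median of 0.02, microglial genes 0.02, interneuron genes 0.003, endothelial genes −0.002 and cortical excitatory genes −0.03. The 5 blood markers, haemoglobin genes and Alas2, were all below 0, with a median of −0.28 and levels of 8.94 to 11.23 in lithium libraries and 10.04 to 11.46 in fluoxetine libraries. That median was −0.14 without lithium female replicate 1, −0.16 without lithium female replicate 2, −0.19 without fluoxetine male replicate 5 and −0.51 without the striatal-rich libraries. Meningeal fibroblast markers had a median of 0.11. None of these markers was called, and their part in the gene differences was not tested.

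Within single sexes the groups were small and no gene was called with limma. In females 837 genes had an unadjusted p under 0.05 (4.97%), with Oasl2, Cog6 and Mcm8 of smallest p (adjusted p = 0.334 each). In males there were 1117 (6.63%), with Castor2 (0.25 ± 0.050, adjusted p = 0.118), Rbm28 (0.41 ± 0.087, adjusted p = 0.132) and 1700021F05Rik (0.26 ± 0.057, adjusted p = 0.166) in front. The drug difference was tested between the sexes as well, and no gene was called, with 383 at an unadjusted p under 0.05 (2.27%). The smallest p there belonged to Fhl4, at −0.77 in females and 0.42 in males (difference −1.19 ± 0.266, adjusted p = 0.706), followed by Tbx4 and 4732414G09Rik. Olfactory bulb markers had a median of −0.41 in females (0 of 5 above 0) and 0.56 in males (5 of 5). Striatal markers stood at −0.26 in females (0 of 13 above 0) and 0.21 in males (10 of 13). The part of this tissue in the single-sex values was not tested.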

How the data were processed

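Stranded poly(A) RNA-seq libraries of mouse prefrontal cortex were grouped by genotype, drug and sex from the labels alone. The authors deposited 1 table of normalized counts, a signal scaled by factors they computed. Per the submitters' processing notes, Salmon 0.11.2, DESeq2 1.19.11, R 3.6.0 and GRCm38 were used, with no role given. Low values were not whole multiples of 1 step per library, so no count test was run. All 59 libraries entered 1 model with a mean for each of 12 groups, in limma 3.58.1 (R 4.3.3, statmod 1.5.0) with trend and robust shrinkage, on log2(value + 1), for genes with a mean of at least 10, with sexes weighted equally. Benjamini-Hochberg adjustment covered all tested genes. Differences are on the log2(value + 1) scale, which understates those of low genes, and errors are SE. Positions come from GENCODE on GRCm38, symbols matched 51285 of 51456 identifiers, and promoters come from RefSeq.

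Named genes were Chd8, all called genes, the genes of smallest p with a mean of at least 50 until each direction had 10, the 3 of smallest p in each secondary test, and from each of 43 lists (14 of cell markers, 29 of processes) the called members and the 3 of smallest p, with every tested member of the inositol, GSK3 and serotonin lists. Further list members were chosen after their values were seen. Members, lists and this rule were chosen with earlier results of these data known. Lists are described by counts and medians, with no set test. Alternatives were no trend or robust shrinkage, TMM factors computed from their definition, no filter or a mean of at least 50, a pseudocount of 0.5, the contrast's libraries alone, drug and sex as additive terms, replicate number as a block, library weights, marker levels or a principal component as covariates, and libraries left out. The model was also run on simulated data, with noise drawn separately for each gene and library. Such noise holds no shared tissue or dam structure, so that run cannot speak to either. Some members of the cholesterol list are counted but not reported singly here.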

Additional observations from a re-analysis of the deposited data

Results flagged for a closer look

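Of 70 groups of 9 or 10 libraries examined (Chd8, the 20 leading genes and 14 marker levels in each drug), 1 held a library apart from the rest. Tmem91 had 302 normalized counts in HT-labelled fluoxetine female replicate 3, with the nearest other fluoxetine library at 347. Chance alone flags about 1 in 20 such groups. No gene was called in the tests of the difference between the sexes or between the genotype labels.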

How the results depend on the processing

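The 13 calls between lithium and fluoxetine in HT-labelled libraries became 6 with no filter on low values, 5 from the contrast's libraries alone, 8 with drug and sex as additive terms, 5 without the libraries of high striatal markers, 23 with the myelin level as a covariate, 112 with olfactory bulb and striatal levels, 203 with the first principal component and 288 with library weights. The cause was not tested. The principal component used as a covariate was that of all 59 libraries. Leaving out 1 library gave 4 to 25 calls. They were 13 to 16 with no trend, TMM factors, a mean of at least 50, a pseudocount of 0.5 or the striatal level alone. All 13 were called under these, the block, library weights, both tissue levels and the principal component. Castor2 and Rbm28 were called in all 14 alternatives that left no single library out. In females the 0 calls became 3 with no filter and 5 with library weights. In males they became 190 with library weights, 10 with the principal component and 1 without the striatal-rich libraries. The genotype difference gave 1 call with the myelin covariate. The covariate was chosen after seeing the data. With replicate number as a block, 35 genes were called. Same-numbered libraries of the drugs correlated at −0.268 to 0.391 over 9 pairs, 6 of them over 0.1 and 5 best with their own number. Pairs of different number within a sex ran from −0.517 to 0.505, a range that encloses the first. In both drugs and sexes, replicates 1 and 2 had lower olfactory bulb levels than replicate 4. These are hints from the data. Not every pair passed 0.1 and the labels tie no number to a litter or day, so the libraries were treated as unpaired. For single genes, 6636 values stayed on their side of the threshold, 143 lost the call and 96 gained it. Of these 6636, the uncalled ones moved by at most 2 SE, and their sign was not checked. No called value changed sign, and no uncalled one became called in the opposite direction. The median over all genes shifted by −0.0005 with TMM factors. The interferon genes shown are at low counts, which limits their precision.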

Other observations

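Of the protein machinery lists, proteasome genes lay on the fluoxetine side, with 29 of 31 below 0, though by small amounts (median −0.03, and −0.01 with 23 below 0 without the striatal-rich libraries). Psma5, a subunit of the catalytic core, had 1621, 1753 and 1882 normalized counts with lithium, against 1771, 1877 and 2004 with fluoxetine (−0.12 ± 0.032, adjusted p = 0.103). Genes of the cytosolic ribosome stood at a median of −0.03. Above 0 were 23 of 79, and 11 (13.9%) had an unadjusted p under 0.05, all lower, beside 5.03% of all tested genes. Near-identical gene copies make their counts uncertain. Nuclear genes of oxidative phosphorylation had a median of 0.02, with 52 of 70 above 0. At an unadjusted p under 0.05 there were 12 (17.1%), all higher, beside 5.05% of all tested genes. Cox7b was among the 12 (0.12 ± 0.033, adjusted p = 0.122). The 13 genes encoded in mitochondria had a median of −0.03 and the 76 mitochondrial ribosomal proteins 0.01. Heat shock chaperones were above 0 in 15 of 19 with a median of 0.03, with Hspa1a at 0.21 ± 0.065. No member of these lists was called.

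Among neuronal lists, neurotrophin genes had a median of 0.09, with Ntrk3, the receptor of neurotrophin 3, at 0.13 ± 0.046 and Bdnf at 0.19 ± 0.105, against vehicle 0.23 for lithium and 0.03 for fluoxetine. Postsynaptic glutamate genes had a median of 0.01, GABA genes −0.02, presynaptic release genes −0.04, voltage-gated channels −0.003 and tubulins 0.07. Glucocorticoid response genes had a median of −0.06, with the mineralocorticoid receptor gene Nr3c2 at −0.16 ± 0.049 (adjusted p = 0.194). Thyroid hormone genes had −0.05, circadian genes −0.01, lysosomal genes −0.01, pyrimidine genes −0.03, glycolysis genes −0.03, the Chd family −0.02 and autism-linked chromatin genes 0.005. Chd2, of the Chd8 family, had 2281, 2572 and 3417 with lithium, against 2152, 2267 and 2708 with fluoxetine (0.15 ± 0.049, adjusted p = 0.194), and it rose in WT-labelled libraries (adjusted p = 0.00185). The neuroblast list had a median of −0.04, the striatal list −0.06, oligodendrocyte precursors −0.04, mural cells −0.04, the choroid plexus 0.07 and the olfactory bulb 0.06. The neuroblast, striatal, choroid plexus and olfactory bulb medians were below 0 in females and above 0 in males. No member of these lists was called.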
